A study of Mus musculus with 24 samples.

Results

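The genes described here are the 4 TCF/LEF transcription factors of the mouse, Tcf7, Tcf7l1, Tcf7l2 and Lef1, and Ctnnb1, which encodes beta-catenin. They were chosen by symbol, and all 5 were found among the 48820 entries of each of the 4 deposited count tables. RNA-seq counts of 24 libraries from C57BL/6 mice (C57BL/6J in the methods of the study) were compared, with 3 libraries in each of 8 groups. Liver macrophages (CD45+Ly6C-F4/80+CD64+) and hepatic endothelial cells (ECs, CD45-CD31+) were sorted from mice aged 8 to 10 weeks, and whole livers were taken from mice aged 12 weeks. Mice labelled Bmp9/10-HSC-KO carried Gdf2 fl/fl and Bmp10 fl/fl alleles with Lrat-Cre, which deletes both ligands in hepatic stellate cells (HSCs), and their macrophages, ECs and livers were each compared with control mice whose alleles the labels do not detail. Mice labelled Smad4FF cKO carried Smad4 fl/fl with Vav1-Cre, which acts in all blood cells, and their macrophages were compared with Smad4FF macrophages. Since Lrat-Cre acts in HSCs, the macrophages and ECs of Bmp9/10-HSC-KO mice carry no deletion of their own by design, whereas in Smad4FF cKO mice the deletion is aimed at the blood cells themselves, macrophages included. The mouse tags of the labels place 3 mice in both the EC and the macrophage libraries.

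TCF/LEF factors bind DNA through an HMG box at the target genes of the Wnt pathway. Without Wnt they hold these genes down together with corepressors of the TLE family. When a Wnt ligand reaches its Frizzled and LRP receptors, beta-catenin escapes the destruction complex, enters the nucleus and turns the bound factors into activators. Tcf7l1 acts mostly as a repressor, whereas Tcf7, Lef1 and Tcf7l2 are better known as activators. Beta-catenin also links cadherins to the actin skeleton at cell junctions, which in ECs are built on VE-cadherin. In the liver, Wnt signals from ECs around the central vein set the pericentral programme of hepatocytes. GDF2 (also called BMP9) and BMP10 signal through the receptor ALK1 and through complexes that contain SMAD4.

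In GRCm38 with the GENCODE vM21 annotation, Tcf7l1 lies at chr6:72626378-72789254 on the minus strand, Tcf7l2 at chr19:55741820-55933654 on the plus strand, Tcf7 at chr11:52252371-52283014 on the minus strand, Lef1 at chr3:131110471-131224356 on the plus strand and Ctnnb1 at chr9:120929216-120960507 on the plus strand. All 5 are protein coding. Exons on the opposite strand overlap 4.56% of the exonic bases of Tcf7l1 (antisense gene Gm15401), 13.75% of those of Lef1 (Gm43352) and 14.62% of those of Ctnnb1 (Ulk4). Whether the counting used the strand is not given in the sources used here, so reads from these stretches cannot be told apart.

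Promoter sequence is shown for Tcf7l1 and Tcf7l2, because these genes were lower together in macrophages of Bmp9/10-HSC-KO mice. Short motifs were searched in the RefSeq windows of GRCm38.p6, which hold 250 bases up to the start site and 50 bases after it, on both strands: the TCF/LEF core as CTTTGAT or CTTTGAA, and GGCGCC, a GC-rich element that BMP-activated SMADs can bind and that reads alike on both strands. Among 32851 windows of all genes, 3.7% held CTTTGAT, 5.1% held CTTTGAA and 11.9% held GGCGCC. Of the 11 windows of the 5 genes, 0 held a TCF/LEF core and 7 held GGCGCC, of which 2 windows of Lef1 overlap and share 1 site. The windows with GGCGCC were 64.3 to 76.3% G and C, and those without it 42.0 to 75.3%. The share over all genes was not matched for this content. In the upstream window of Tcf7l2, GGCGCC stood 194 and 116 bases before the start site, and in that of Tcf7l1 it stood 28 bases after it. A match is a description of the letters, and these data do not show binding. The stretch before the Tcf7l2 start site (chr19:55741560-55741809, plus strand) and the 30 bases around the Tcf7l1 match (chr6:72789001-72789030, minus strand) are given 5′ to 3′ with GGCGCC in capitals.
Tcf7l2: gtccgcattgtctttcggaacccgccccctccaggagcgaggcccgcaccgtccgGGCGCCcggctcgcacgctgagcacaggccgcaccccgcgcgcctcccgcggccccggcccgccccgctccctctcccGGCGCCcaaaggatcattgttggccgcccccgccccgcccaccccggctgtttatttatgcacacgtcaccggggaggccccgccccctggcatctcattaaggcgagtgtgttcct
Tcf7l1: gagggagggaggGGCGCCgggccgggccag

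Total counts ran from 60911527 to 110879155 per library, so 3 counts, the lower limit of detection used here, correspond to at most 0.0493 CPM, where CPM is the count scaled to the size of the library. In the livers, Gdf2 had 720 to 2036 counts in control mice and 178 to 287 in Bmp9/10-HSC-KO mice (edgeR's quasi-likelihood test, Benjamini-Hochberg (BH)-adjusted p = 0.013), and Smad4 was at 35.2 to 42.8 CPM in Smad4FF macrophages and at 12.6 to 17.2 CPM in Smad4FF cKO macrophages (adjusted p = 0.0023). Marker lists matched the labelled cells: 6 macrophage markers summed to 9323 to 21926 CPM in the macrophage libraries (lower in both mutant groups than in their controls), 13 endothelial markers to 10121 to 13390 CPM in the EC libraries and the 7 hepatocyte markers in the tables to 120018 to 205566 CPM in the livers. The 5 Kupffer cell (KC) markers summed to 27741 to 30254 CPM in control macrophages and to 41.1 to 209 CPM in those of Bmp9/10-HSC-KO mice, and to 23186 to 29328 CPM in Smad4FF and 491 to 524 CPM in Smad4FF cKO macrophages. The macrophage libraries of the Smad4 experiment held far more endothelial transcript than those of the ligand experiment, which is given with the values it touches. Xist, a transcript of female cells, was not balanced between groups. Its log2 CPM was -6.64, -6.64 and 4.40 in control and -6.64, 6.24 and 6.45 in Bmp9/10-HSC-KO macrophages, where -6.64 stands for 0 counts. In ECs it was 4.43, -6.64 and -6.64 against 4.67, -6.64 and 5.42. The third mutant liver had -2.50, the other livers 8.24 to 9.47.

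The sorted macrophages and the sorted ECs were each dominated by a different TCF/LEF gene. On the CPM per kilobase of exon, which allows genes to be set against each other, Tcf7l2 made up 92.0% ± 1.18 (SD, n = 3) of the summed TCF/LEF level in control macrophages and 96.2% ± 0.848 in Smad4FF macrophages. In control ECs the leading gene was Tcf7l1, with 83.3% ± 4.62 of the sum, and Tcf7l2 held 16.3% ± 4.66. In control livers Tcf7 held 41.6% ± 10.2, Tcf7l1 36.1% ± 7.52 and Tcf7l2 21.8% ± 6.05, so that no single gene prevailed beyond the spread between livers. Lef1 stayed below 1% of the sum in all 24 libraries.

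**Figure D1:**
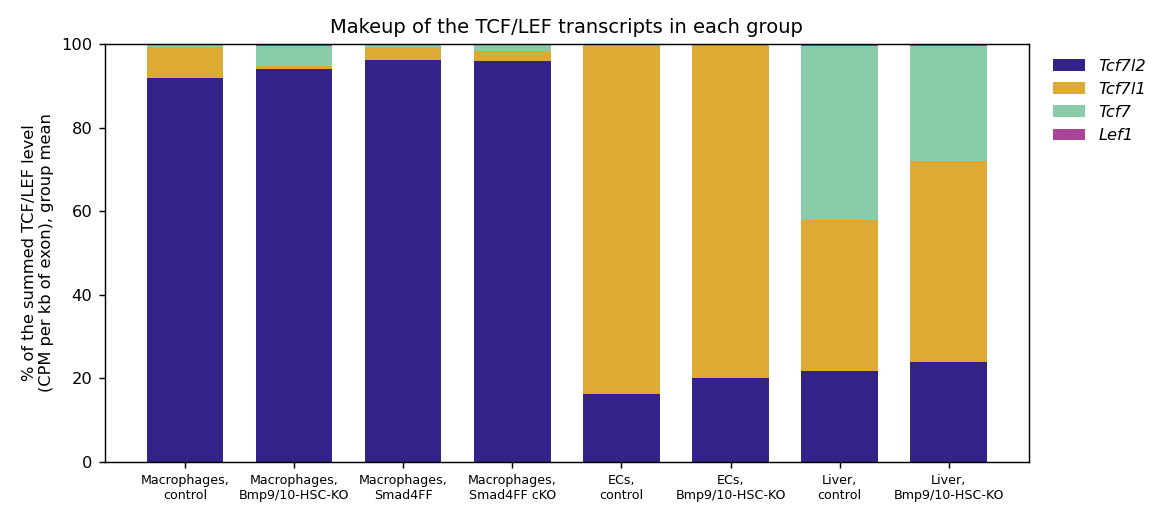
Makeup of the TCF/LEF transcripts in the 8 groups; each stacked bar gives the mean share over 3 libraries, in percent of the summed CPM per kilobase of exon, of Tcf7l2, Tcf7l1, Tcf7 and Lef1. Tcf7l2 fills over 90% of the bar in the 4 macrophage groups and Tcf7l1 about 80% in the EC groups.

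In Bmp9/10-HSC-KO mice, Tcf7l1 and Tcf7l2 were both lower in liver macrophages, Tcf7l1 by 30.1-fold and Tcf7l2 by 3.16-fold, whereas Tcf7, Lef1 and Ctnnb1 did not pass the test. These 2 of 5 genes were called lower and 0 higher, in a comparison in which 9.87% of all 16337 genes tested were called lower and 9.29% higher. A call is a BH-adjusted p below 0.05 in edgeR's quasi-likelihood test over all genes past the filter. Both also exceeded the larger-change threshold of the study, an absolute log2 fold change above 1. The sorted macrophages of these mice also had almost no KC marker transcript, and their 6 macrophage markers summed to 13410 to 15442 CPM against 16123 to 18430 CPM in control macrophages, with 3 of the 6 called lower, Adgre1 (log2 fold change -0.56), Csf1r (-0.77) and Cd68 (-0.73). In bulk libraries fewer cells of a type and less RNA per cell cannot be told apart.

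In the 3 control libraries Tcf7l1 had 19.3, 22.0 and 24.6 CPM, and in the 3 Bmp9/10-HSC-KO libraries 0.296, 0.304 and 1.59 CPM, from 1631, 1872 and 1409 counts against 26, 29 and 145. The groups did not overlap, and the third mutant library stood above the other two. The log2 fold change was -4.91 (SE 0.68, 95% interval -6.49 to -3.33, BH-adjusted p = 0.0025). Without that library the value was -6.19, with an adjusted p of 8e-05.

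Tcf7l2, the leading TCF/LEF gene of these cells, had a level of 619, 636 and 582 CPM in control macrophages and of 200, 154 and 228 CPM in mutant macrophages. Every control library stood far above every mutant library. The log2 fold change was -1.66 (SE 0.16, 95% interval -2.04 to -1.28, adjusted p = 0.00057). Since both genes fell, Tcf7l2 still made up 94.1% ± 3.77 of the summed TCF/LEF level in mutant macrophages, while the share of Tcf7l1 went from 7.40% ± 1.07 to 0.716% ± 0.598 and that of Tcf7 from 0.557% ± 0.148 to 4.80% ± 2.90. Non-overlap by itself was common in this comparison, since 40.3% of all genes tested had groups that did not overlap.

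Tcf7, best known as a T cell factor, was at 0.946, 0.965 and 1.40 CPM in control macrophages and at 3.11, 0.870 and 5.79 CPM in those of Bmp9/10-HSC-KO mice. Lef1, its close relative, was at 0.816, 0.271 and 0.280 CPM and at 0.729, 0.115 and 2.08 CPM. For both genes the second mutant library was the lowest of all 6 and the third the highest, so the groups overlapped (log2 fold change 1.56, SE 0.63, adjusted p = 0.13 for Tcf7, and 1.09, SE 0.97, adjusted p = 0.48 for Lef1). Markers of T and NK cells ranked the mutant libraries in the same order: the 16 markers, all of which had counts in each mutant library, summed to 241, 99.3 and 354 CPM there and to 47.4, 19.1 and 20.6 CPM in the control libraries. The part of these cells in the levels of Tcf7 and Lef1 was not tested. DESeq2 called Tcf7 higher (adjusted p = 0.048), as did edgeR without the second mutant library (log2 fold change 2.01, adjusted p = 0.023), while without the third mutant library the value was 0.85 (adjusted p = 0.41).

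Ctnnb1 was at 134, 143 and 111 CPM in control and at 115, 116 and 107 CPM in mutant macrophages. These ranges overlapped, and the log2 fold change of -0.20 (SE 0.13, adjusted p = 0.33) had a 95% interval from -0.49 to 0.10.

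**Figure D2:**
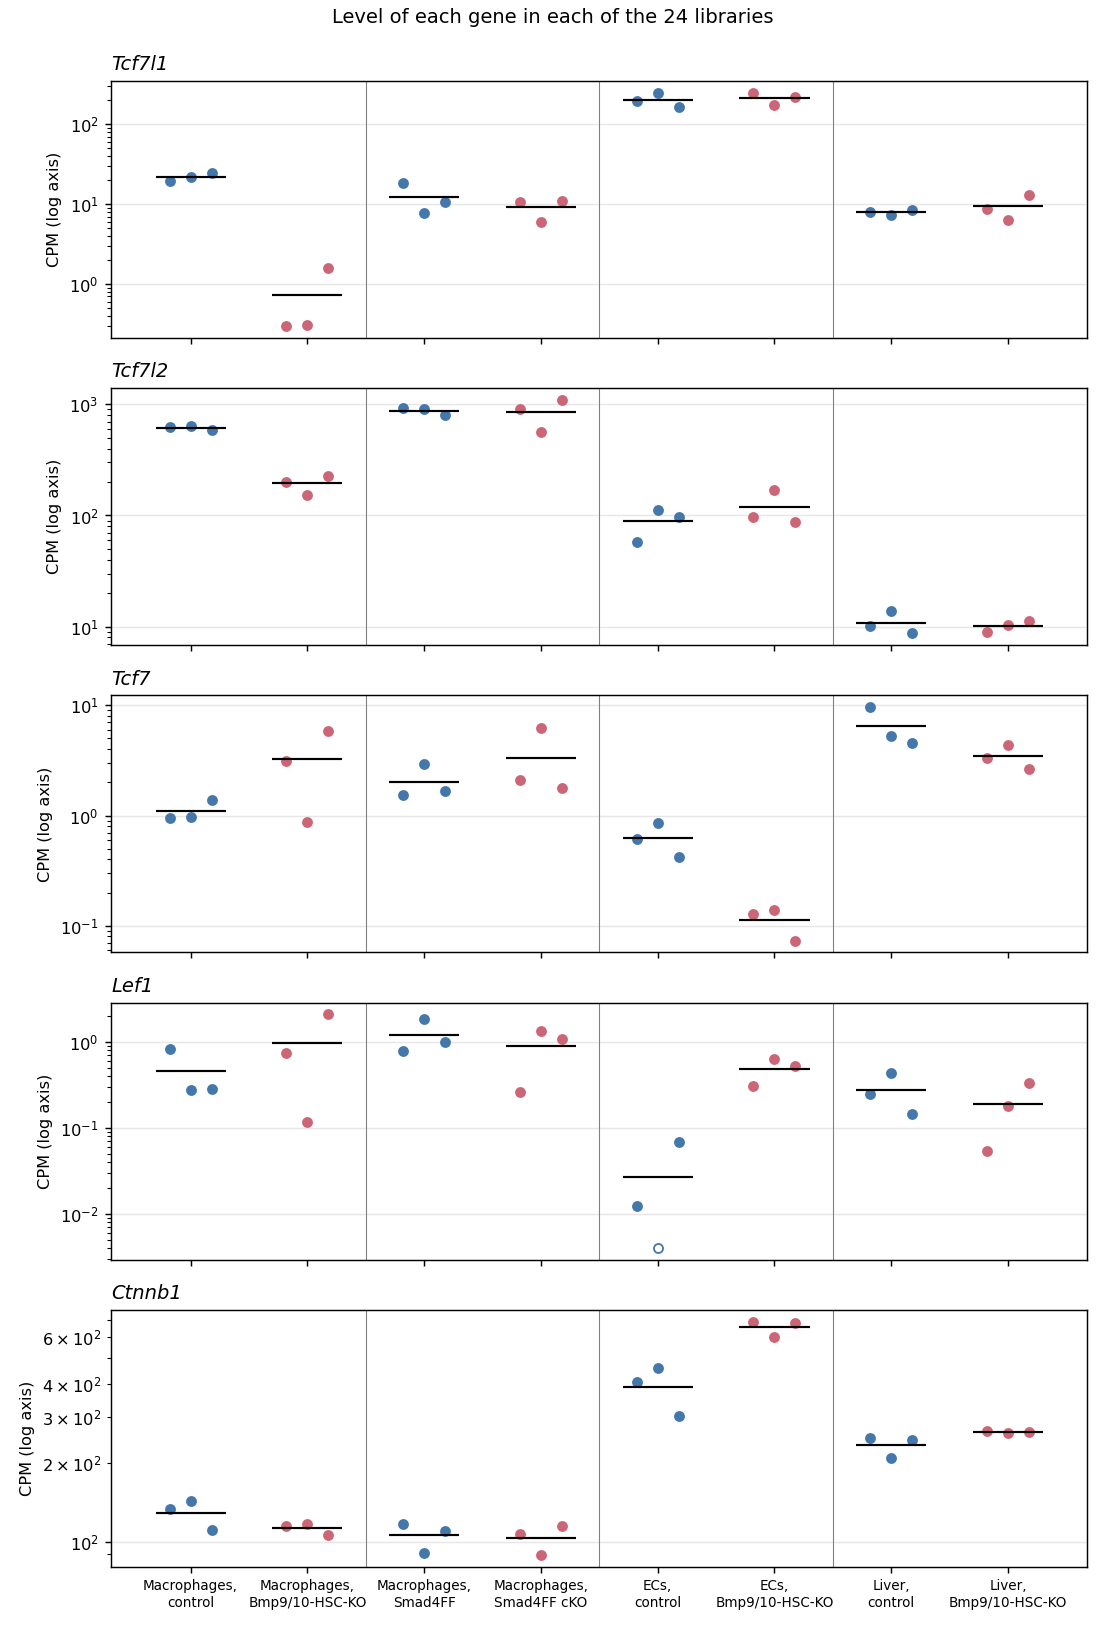
Level of Tcf7l1, Tcf7l2, Tcf7, Lef1 and Ctnnb1 in each of the 24 libraries, in CPM scaled within each comparison, on log axes; points are libraries (blue control, red mutant), lines are group means, and the open point is a library with 0 counts, drawn at the bottom. Tcf7l1 and Tcf7l2 separate fully between control and Bmp9/10-HSC-KO macrophages, and Lef1, Tcf7 and Ctnnb1 do so between the EC groups.

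Deletion of Smad4 in blood cells was not accompanied by a detected change of any of the 5 genes in macrophages. Of the 5, 0 were called, where 3.71% of 17517 genes tested were called higher and 4.03% lower in Smad4FF cKO macrophages; at an unadjusted p below 0.05 the count was also 0, and DESeq2 called 0. On simulated counts of these libraries, the test recovered 23% of genes changed by a log2 of 1 and 73% of those changed by 2, so a change of 2-fold could have been missed, for which the intervals below are the guide. The 6 macrophage markers summed to 18130 to 21926 CPM in Smad4FF and to 9323 to 12870 CPM in Smad4FF cKO macrophages, without overlap, and 2 of them were called lower, Adgre1 (log2 fold change -1.31) and Lyz2 (-1.16). The part of this in the values below was not tested. For Tcf7l1, ECs would supply 88.4 to 211% of the level measured in Smad4FF and 166 to 365% in Smad4FF cKO libraries, as set out below. Its level in the macrophages themselves can therefore not be read from these libraries.

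Tcf7l2 was at 932, 899 and 808 CPM in Smad4FF macrophages and at 909, 563 and 1095 CPM in Smad4FF cKO macrophages. The second mutant library was the lowest and the third the highest of the 6, and the log2 fold change was -0.04 (SE 0.23, 95% interval -0.58 to 0.50, adjusted p = 0.94). Leaving out the second mutant library gave 0.19 (adjusted p = 0.50). That library also held the most T and NK cell transcript of the macrophage libraries, with a marker sum of 489 CPM against 125 to 296 CPM in the other 5 of this experiment.

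Tcf7l1 was at 18.2, 7.69 and 10.7 CPM in Smad4FF macrophages and at 10.7, 6.03 and 11.03 CPM in Smad4FF cKO macrophages. The groups overlapped (log2 fold change -0.40, SE 0.36, 95% interval -1.24 to 0.44, adjusted p = 0.60). Tcf7 was at 1.52, 2.91 and 1.67 CPM against 2.08, 6.22 and 1.78 CPM, the highest value again in the library richest in T and NK cell markers. Lef1 was at 0.783, 1.82 and 0.998 CPM against 0.258, 1.33 and 1.06 CPM, and Ctnnb1 at 117, 90.5 and 110 CPM against 107, 89.1 and 115 CPM. Their adjusted p-values were 0.50, 0.75 and 0.94.

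How much of these levels endothelial transcript could hold was set out from the sorted ECs. The summed level of the 13 endothelial markers in a macrophage library, divided by that in the ECs of the matching genotype (control ECs for both Smad4 groups), gives an EC share, and this share times the level of a gene in those ECs gives the level that ECs would supply. The share was 0.399, 2.11 and 1.45% in the control libraries of the ligand experiment and 0.135, 0.111 and 0.582% in the Bmp9/10-HSC-KO libraries. It was 14.2, 3.96 and 13.1% in the Smad4FF and 13.3, 12.7 and 10.5% in the Smad4FF cKO libraries. The endothelial markers were thus higher in each library of the Smad4 experiment than in any of the ligand experiment, and all 13 had counts in each of the former.

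For Tcf7l1, the gene that leads in ECs, the supplied level was 3.45, 15.7 and 10.0% of the measured level in control macrophages of the ligand experiment and 82.8, 64.8 and 68.4% in Bmp9/10-HSC-KO macrophages. In the Smad4 experiment it was 135, 88.4 and 211% in Smad4FF and 218, 365 and 166% in Smad4FF cKO libraries, above the measured level in 5 of 6, so that the share overstates what ECs gave for this gene there. The part of ECs in the Tcf7l1 level was not tested in either experiment. For Tcf7l2 the supplied level was at most 1.7% of the measured level in any of the 12 macrophage libraries. For Ctnnb1 it was 0.517 to 4.62% in the ligand experiment and 14.4 to 47.2% in the Smad4 experiment.

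**Figure D3:**
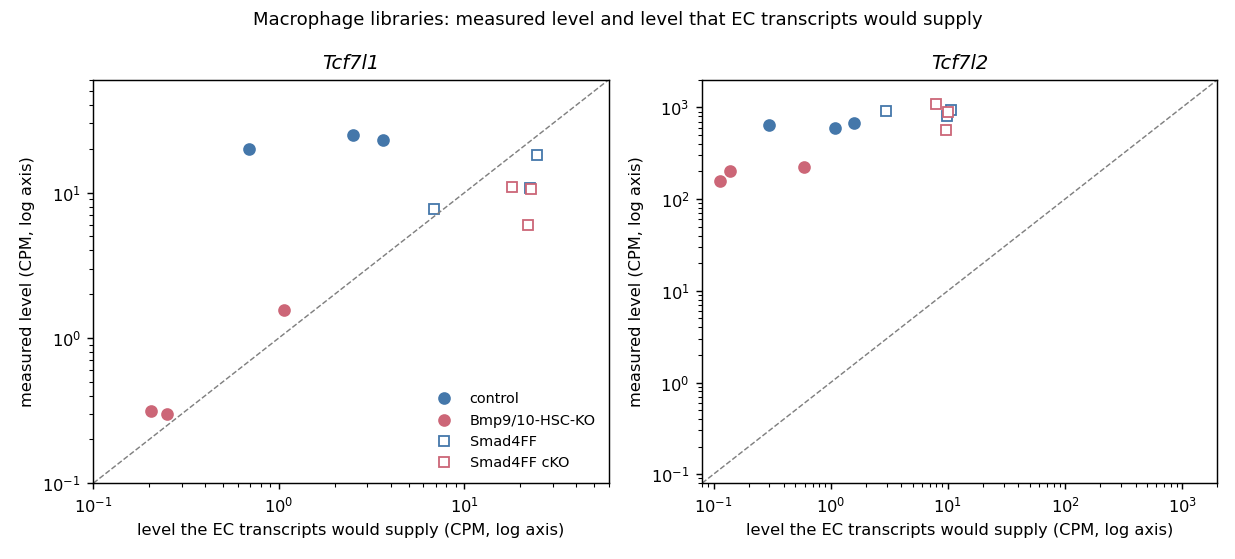
Measured level of Tcf7l1 and Tcf7l2 in the 12 macrophage libraries against the level that their EC transcripts would supply, both in CPM scaled over 24 libraries on log axes; filled circles are the ligand experiment, open squares the Smad4 experiment, blue control and red mutant, and the dashed line marks equal values. The 3 control libraries of the ligand experiment stand far above the line for Tcf7l1, the other 9 near or below it, and all 12 stand far above it for Tcf7l2.

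In ECs of Bmp9/10-HSC-KO mice, 3 of the 5 genes passed the test. Ctnnb1 was 1.69-fold higher, Lef1 rose from the limit of detection and Tcf7 was 5.48-fold lower, whereas Tcf7l1, the leading TCF/LEF gene of ECs, and Tcf7l2 did not pass the test. Of the 5 genes 2 were called higher and 1 lower, in a comparison in which 10.3% of 16053 genes tested were called higher and 9.77% lower, and 40.4% had groups without overlap.

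Ctnnb1 was at 405, 459 and 300 CPM in control ECs and at 690, 600 and 678 CPM in ECs of Bmp9/10-HSC-KO mice. Each mutant library stood above each control library. The log2 fold change was 0.76 (SE 0.19, 95% interval 0.32 to 1.2, BH-adjusted p = 0.028), below the larger-change threshold of the study.

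Lef1 had 1, 0 and 5 counts in the control and 29, 45 and 43 counts in the mutant EC libraries, or up to 0.0679 CPM against 0.308, 0.628 and 0.526 CPM. With 2 of the 3 control libraries at or under 3 counts, the fitted log2 fold change of 4.08 (SE 1.05, adjusted p = 0.031) depends on how zeros are treated. The ratio of the summed counts per summed depth was 20.9, with an exact 95% interval from 9.31 to 58.0 that covers counting error only. Even so, Lef1 made up 0.0829% ± 0.0326 of the TCF/LEF level in these ECs.

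Tcf7 had 50, 53 and 31 counts in the control and 12, 10 and 6 in the mutant EC libraries, or 0.610, 0.857 and 0.421 CPM against 0.127, 0.140 and 0.0733 CPM. The groups did not overlap (log2 fold change -2.46, SE 0.61, 95% interval -3.88 to -1.03, adjusted p = 0.028). Of the 16 T and NK cell markers, 11 to 15 were at 0 in each of the 6 EC libraries, and their sum was 11.1 to 16.1 CPM in control and 9.42 to 14.1 CPM in mutant ECs. Macrophage transcript did move: the 6 macrophage markers summed to 190 to 275 CPM in control ECs, with none at 0, and to 55.7 to 93.0 CPM in mutant ECs, with Fcgr1 at 0 in each, and the 5 KC markers to 18.8 to 20.6 CPM and to at most 0.131 CPM, with 4 or 5 of them at 0. The part of these transcripts in the EC results was not tested. Each of these 3 calls was lost when most single libraries were left out, with the direction kept: the call held for Ctnnb1 and Tcf7 in 1 of 6 such fits (without the second and the third control library) and for Lef1 in 2 (without the third control or the first mutant library), and in the others the log2 fold changes lay within 0.60 to 0.82 for Ctnnb1, -2.62 to -2.17 for Tcf7 and 3.57 to 4.03 for Lef1. Without the third control library, which holds 5 of the 6 control counts, the value of Lef1 was 5.87.

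Tcf7l1 was at 196, 250 and 164 CPM in control and at 248, 176 and 219 CPM in mutant ECs (log2 fold change 0.08, SE 0.20, adjusted p = 0.83). These values overlapped throughout, and the 95% interval from -0.39 to 0.54 leaves out a fall of the size seen in macrophages. Tcf7l2 was at 57.5, 111 and 97.2 CPM in control and at 96.1, 171 and 87.2 CPM in mutant ECs, where the second mutant library was the highest (log2 fold change 0.41, SE 0.32, 95% interval -0.33 to 1.16, adjusted p = 0.43). With the level of Xist as a covariate the value was 0.72 and the adjusted p 0.008.

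**Figure D4:**
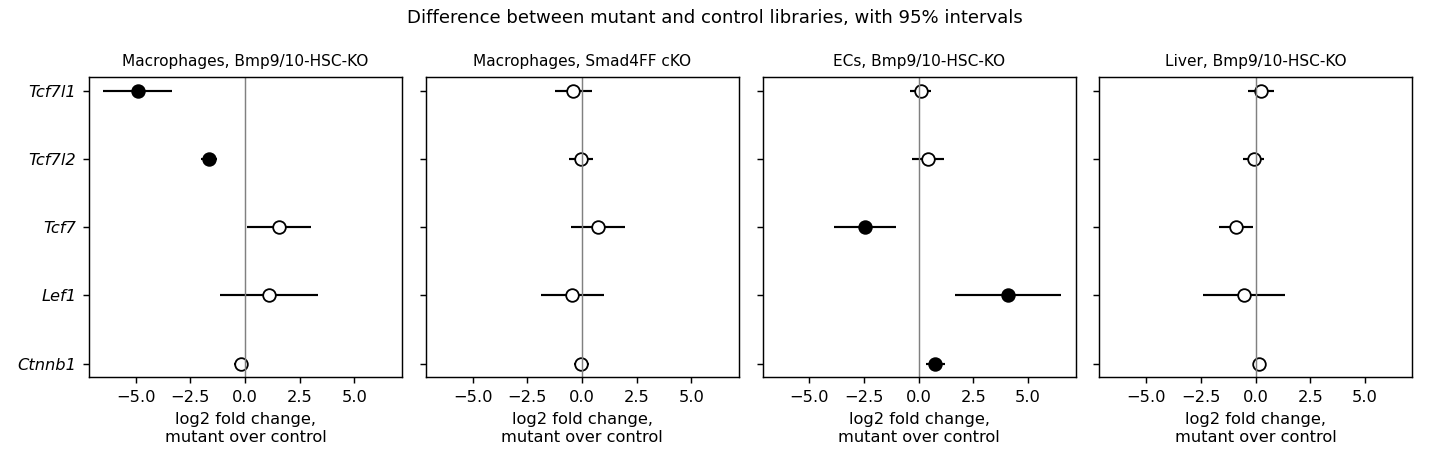
Log2 fold change of each gene, mutant over control, in the 4 comparisons, with 95% intervals from edgeR's quasi-likelihood test; filled points had an adjusted p below 0.05. Tcf7l1 and Tcf7l2 are filled in macrophages of Bmp9/10-HSC-KO mice, and Tcf7, Lef1 and Ctnnb1 in their ECs.

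In whole livers of Bmp9/10-HSC-KO mice, 0 of the 5 genes were called, where 1.24% of 17118 genes tested were called higher and 1.59% lower; DESeq2 also called 0, and at an unadjusted p below 0.05 edgeR gave 1, Tcf7. Tcf7 was at 9.63, 5.22 and 4.53 CPM in control livers and at 3.34, 4.34 and 2.66 CPM in mutant livers. These groups did not overlap, as was so for 19.7% of all genes, and the log2 fold change was -0.91 (SE 0.34, 95% interval -1.69 to -0.13, adjusted p = 0.29). The T and NK cell markers summed to 15.6 to 18.3 CPM in control and 2.95 to 10.5 CPM in mutant livers. In the third mutant liver, which was also the lowest in Tcf7, 7 of the 16 were at 0. It was also the liver with little Xist (log2 CPM -2.50). The part of the T and NK cell markers in the Tcf7 level was not tested.

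Tcf7l1 was at 7.98, 7.40 and 8.52 CPM in control and at 8.73, 6.40 and 13.2 CPM in mutant livers (log2 fold change 0.24, adjusted p = 0.80). Tcf7l2 was at 10.1, 13.8 and 8.68 CPM against 8.85, 10.4 and 11.3 CPM (log2 fold change -0.09, adjusted p = 0.92). Both pairs of groups overlapped, and the 95% intervals ran from -0.36 to 0.85 and from -0.56 to 0.38. Lef1 had 4 to 33 counts per liver (adjusted p = 0.87). Ctnnb1 was at 249, 209 and 244 CPM in control and at 265, 260 and 262 CPM in mutant livers, which did not overlap but differed by a log2 of 0.17 only (SE 0.12, adjusted p = 0.68).

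The livers hold ECs and macrophages, and the levels both would supply were reckoned in the same way from the sorted cells of the same genotype. By their markers, the EC share was 3.18 to 3.69% in control and 3.6 to 4.28% in mutant livers, and the macrophage share was 1.22 to 1.85% and 0.527 to 0.814%. Together these would supply 60.3 to 78.4% of the Tcf7l1 measured in control livers and 46.8 to 110% in mutant livers. For Tcf7l2 the supplied level was 83.2 to 124% in control and 38.1 to 50.9% in mutant livers. For Tcf7 it was below 1% in each liver, and for Ctnnb1 4.07 to 8.57%. The measured Tcf7l2 level of the livers thus stayed within the spread between replicates while the level that macrophages would supply went from 7.71 to 11.7 CPM down to 1.03 to 1.59 CPM; what made up the rest was not tested.

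The loss of Tcf7l1 and Tcf7l2 in macrophages of Bmp9/10-HSC-KO mice differed from each of the other 3 comparisons by a test of the difference itself. That test took all libraries as separate, although 3 mice are in both the macrophage and the EC libraries. For Tcf7l1, the difference of the log2 fold changes was -4.47 (SE 0.80, 95% interval -6.22 to -2.72, adjusted p = 0.014) against Smad4FF cKO macrophages, -4.98 (SE 0.72, adjusted p = 0.00096) against ECs and -5.19 (SE 0.79, adjusted p = 0.0022) against livers. Without the third mutant macrophage library, the highest in Tcf7l1, these came to -5.74, -6.25 and -6.44. For Tcf7l2 it was -1.57 (SE 0.31, 95% interval -2.24 to -0.90, adjusted p = 0.02), -2.06 (SE 0.41, adjusted p = 0.0061) and -1.60 (SE 0.28, adjusted p = 0.0048). The first of these, against Smad4FF cKO macrophages, was the least firm: its adjusted p rose to 0.052 without the first Smad4FF cKO library. The Smad4 experiment is also where the EC transcripts would supply most of the Tcf7l1 measured, so for Tcf7l1 the difference between the 2 macrophage experiments stands beside that value.

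Over all genes, 3% of 18280 tested differed between the 2 macrophage experiments, where 2 of the 5 genes did, and 15.3% of 18343 differed between macrophages and ECs of Bmp9/10-HSC-KO mice, where 4 of 5 did. Lef1, although called in ECs only, was not among them (-2.98, 95% interval -6.30 to 0.33, adjusted p = 0.22). Besides Tcf7l1 and Tcf7l2 the 4 were Tcf7, with a difference of 4.03 (SE 0.87, adjusted p = 0.0098), and Ctnnb1, with -0.94 (SE 0.24, adjusted p = 0.024). Between macrophages and livers 9.09% of 19194 genes differed, and 2 of 5. The change in Smad4FF cKO macrophages differed from that in ECs for 2 of 5 genes, Tcf7 (3.15, SE 0.77, adjusted p = 0.02) and Lef1 (-4.55, SE 1.17, adjusted p = 0.026), with 12.4% of all genes called. The difference of Tcf7 between macrophages and ECs of Bmp9/10-HSC-KO mice was called whichever library was left out (3.32 to 4.48, lowest without the third mutant macrophage library). The calls of the other 3 were lost in some of these fits. For Ctnnb1 this was so without the second control, the first mutant or the third mutant macrophage library or the third mutant EC library (-0.96 to -0.86, adjusted p up to 0.065), for Tcf7 without the third Smad4FF or the third mutant EC library (3.01 and 2.91, adjusted p up to 0.054) and for Lef1 without the second Smad4FF, the first control EC or the second mutant EC library (-4.32 to -4.11, adjusted p up to 0.069). The call held but the value moved for Tcf7 without the second Smad4FF cKO library (2.34) and for Lef1 without the third control EC library (-6.33). For Smad4FF cKO macrophages against livers and for ECs against livers, 0 of 5 genes were called, with 3.65% and 7.52% of all genes called; at an unadjusted p below 0.05 edgeR gave 1 and 3 of 5, and DESeq2 called 0 and 1. Neither Tcf7l1 nor Tcf7l2 was called in a pair that left out the macrophages of Bmp9/10-HSC-KO mice, and the intervals of these differences lay within -1.66 to 0.64 for Tcf7l1 and -1.47 to 1.46 for Tcf7l2.

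**Figure D5:**
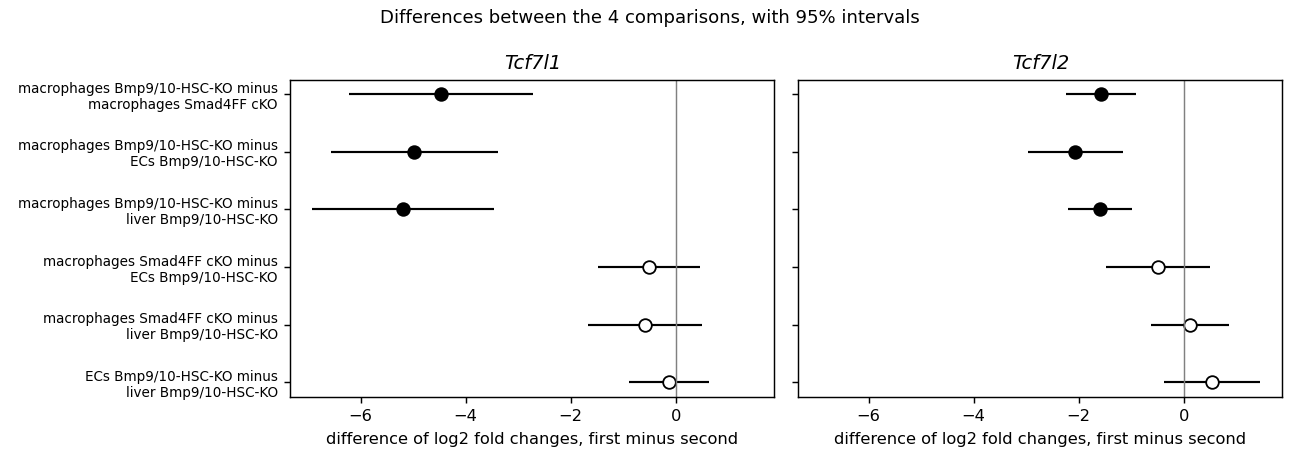
Difference of the log2 fold changes of Tcf7l1 and Tcf7l2 between each pair of the 4 comparisons, first minus second, with 95% intervals; filled points had an adjusted p below 0.05. The 3 pairs with the macrophages of Bmp9/10-HSC-KO mice are filled for both genes, the other 3 for neither.

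Across the 8 groups, scaled over all 24 libraries, Tcf7l2 was highest in Smad4FF (882 ± 64.1 CPM) and Smad4FF cKO macrophages (848 ± 265), followed by control macrophages of the ligand experiment (633 ± 39.6), Bmp9/10-HSC-KO macrophages (196 ± 33.4), mutant ECs (101 ± 39.4), control ECs (75.2 ± 23.1) and the livers (12.7 ± 2.87 and 11.5 ± 1.41). The ranges of the first 3 groups overlapped from neighbour to neighbour, as did those of both EC groups and both liver groups, and the other neighbours in this order did not overlap. Even after its fall, Tcf7l2 in Bmp9/10-HSC-KO macrophages stood above its level in ECs. Tcf7l1 was highest in mutant and control ECs (184 ± 32.6 and 173 ± 36.5 CPM), then in control macrophages of the ligand experiment (22.7 ± 2.53), with Smad4FF macrophages, both liver groups and Smad4FF cKO macrophages between 9.16 and 12.2 CPM without clear order, and lowest in Bmp9/10-HSC-KO macrophages (0.727 ± 0.727). The ranges of the 2 control macrophage groups, 19.97 to 24.98 and 7.73 to 18.2 CPM, did not overlap for Tcf7l1. Since the experiments are in separate tables, such steps between them cannot be told apart from a difference between the experiments.

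Ctnnb1 was highest in mutant ECs (563 ± 44.4 CPM), then in control ECs (330 ± 69.2) and the livers (295 ± 3.49 and 274 ± 30.6), whose ranges overlapped, and lay between 103 and 134 CPM in the 4 macrophage groups. Tcf7 was highest in control livers (7.61 ± 3.41 CPM) and lowest in mutant ECs (0.0975 ± 0.0309). Lef1 was at or below 1.2 CPM in each group mean and lowest in control ECs (0.0226 ± 0.0305).

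The genes whose pattern over the 24 libraries was most like that of a member were taken from 11063 genes whose log2 CPM averaged 1 or more. For Tcf7l1 these were She (Pearson r 0.982), Dcbld1 (0.970), Erg (0.957), Nbea (0.957) and Tspan9 (0.941). Erg encodes a transcription factor of ECs, and She an adaptor protein with an SH2 domain. For Tcf7l2 they were Capzb (0.989), Aldoa (0.986), Ift22 (0.985), Arpc1b (0.983) and Dynlt1b (0.982), among them genes of actin capping and branching and of glycolysis. The points fall into cell types, so these values mostly describe which cell type a gene is highest in, and carry no test.

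The other genes of the pathway were taken from 6 lists of 65 genes, of which 64 were in the tables. In macrophages of Bmp9/10-HSC-KO mice 5 of 50 tested were called higher and 5 lower, close to the 9.29% and 9.87% of all genes, with a median log2 fold change of 0.06 beside 0.04 over all genes (edgeR, adjusted p from 0.00019 to 0.042 for those called). Among corepressors and inhibitors, Tle2 (log2 fold change 1.59), Tle6 (1.17) and Tle3 (0.90) were higher and Ctnnbip1, an inhibitor that keeps beta-catenin from TCF factors, was lower (-0.94). The scaffold gene Apc of the destruction complex (0.88) and Dvl1 (0.67), which relays the receptor signal, were higher, and the co-receptor gene Lrp5 was lower (-0.95). Of the 6 tested partners of beta-catenin at junctions, 3 were lower and 0 higher: Cdh5 (-7.40), Jup (-1.04) and Ctnna1 (-0.96). Cdh5 encodes VE-cadherin, and the study names it among the genes of KC identity that were lower in these macrophages. Its level was 245 ± 43.9 CPM in control against 1.45 ± 1.07 CPM in mutant macrophages. Of the 6 feedback genes and targets tested, 0 were called.

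In Smad4FF cKO macrophages 1 of 53 was called higher, Tle3 (1.23), and 2 lower, Cdh5 (-2.72) and Ctnnbip1 (-1.36), no larger a share than the 3.71% and 4.03% of all genes, and the median of 0.02 lay beside 0.04 over all genes. All 3 also passed in the ligand experiment in the same direction. The log2 fold change of Cdh5 was lower in the ligand experiment (-4.63, SE 0.52, adjusted p = 9e-04), but ECs would supply 220 to 232% of the Cdh5 measured in Smad4FF cKO libraries and 75.9 to 119% of that in Bmp9/10-HSC-KO libraries, against 11.9 to 37.5% in Smad4FF and 0.683 to 3.92% in control libraries, and the part of ECs in this difference was not tested. For Tle3 and Ctnnbip1 the difference between both experiments was not called (-0.29, 95% interval -0.67 to 0.09, and 0.47, 95% interval -0.03 to 0.97).

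In ECs 6 of 55 were called higher and 4 lower, near the 10.3% and 9.77% of all genes, with a median of -0.01 beside 0.00 over all genes. The receptor gene Fzd4 (0.82), the corepressor gene Tle3 (0.85), Znrf3 (1.97), a ubiquitin ligase that removes Frizzled receptors, and the junction gene Jup (2.38) were higher. Ctnnbip1 went from 1.77 ± 0.939 to 62.1 ± 28.6 CPM (5.13). Fzd3 had 0 counts in all 3 control libraries and 26 to 62 in the mutant libraries, at least 42.5-fold higher against 3 counts over the control group. The co-receptor genes Lrp6 (-1.33) and Lrp5 (-1.04), the corepressor gene Tle1 (-1.77) and the feedback gene Nkd1 (-2.79) were lower. For Ctnnbip1, the log2 fold change in macrophages of Bmp9/10-HSC-KO mice was below that in ECs by 6.05 (SE 0.60, adjusted p = 8.7e-05).

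In livers 2 of 60 were called higher and 6 lower, beside 1.24% and 1.59% of all genes, with a median of 0.00 beside -0.01 over all genes. Those lower were all among the 12 feedback genes and targets, a list drawn up with earlier results of these livers known and so no independent evidence of its direction: Lgr5 (-4.95), Tnfrsf19 (-3.33), Axin2 (-2.74), Notum (-1.43), Rnf43 (-1.41) and Sp5, which had 68 to 265 counts in control livers and 0 in mutant livers, at least 133-fold lower against 3 counts over the group. Cdh1 (1.51) and Ctnnbip1 (0.95) were higher. These 6 of 12 genes were thus called lower in livers in which 0 of the 5 TCF/LEF and beta-catenin genes were called.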

How the data were processed

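The authors checked the reads with FastQC, aligned them to mm10 (GRCm38) with HISAT2, counted reads per gene with featureCounts and deposited whole-number counts without normalization. The versions, the annotation and the use of the strand are not given in the sources used here. The paper and the labels name different library kits. Every entry of the tables names a gene.

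Each comparison was fitted on its own 6 libraries in edgeR 4.0.16 (R 4.3.3) by the quasi-likelihood test, with TMM scaling and BH adjustment over all genes tested. Genes entered if they passed filterByExpr with a count of 10 as minimum and a total of 15. Differences between comparisons were tested as interactions over 12 libraries. The SE is the size of a log2 fold change divided by the square root of its F statistic, and 95% intervals use the t quantile of the test's degrees of freedom. CPM are counts relative to library size, scaled with TMM factors within a comparison or, where stated and for marker sums and EC shares, over 24 libraries, and are given as mean ± SD. Limits of 3 counts cover counting error only.

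The members and lists were chosen with earlier results of these data known. Named genes were the members, up to 4 called genes per pathway list with the largest change, and the 5 genes most like Tcf7l1 and Tcf7l2; other pathway genes named are the remaining calls. No label states that libraries of a group are from separate litters or cultures, so p-values measure the spread between these libraries. Replicates of a group differed far beyond sampling noise.

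Alternatives were DESeq2 1.42.0, DESeq2's size factors in edgeR, all genes with a count, only genes with 10 counts in every library, each library left out, a replicate block, all 24 libraries in the fit and Xist as a covariate. On simulated counts in which 200 genes were changed, edgeR recovered 73 to 80% at a log2 of 2 and 20 to 31% at a log2 of 1 in the 4 comparisons. In the simulated interaction of the 2 macrophage experiments it recovered 53% and 6%. Sequences are from RefSeq (GRCm38.p6), lengths and coordinates from GENCODE vM21.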

Additional observations from a re-analysis of the deposited data

Results flagged for a closer look

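Effects on the same gene that differed between 2 comparisons, by edgeR's test of the difference of their log2 fold changes, were set apart for a closer look. Macrophages of Bmp9/10-HSC-KO mice differed from Smad4FF cKO macrophages for Tcf7l1 (-4.47) and Tcf7l2 (-1.57), from livers for Tcf7l1 (-5.19) and Tcf7l2 (-1.60), and from ECs for Tcf7l1 (-4.98), Tcf7l2 (-2.06), Tcf7 (4.03) and Ctnnb1 (-0.94). Smad4FF cKO macrophages differed from ECs for Tcf7 (3.15) and Lef1 (-4.55). Of these 10 differences, 6 concern Tcf7l1 or Tcf7l2. For Tcf7l1, ECs would supply 88.4 to 365% of the level measured in the Smad4 experiment. In livers, ECs and macrophages together would supply 46.8 to 110% of it. The part of these transcripts in the differences was not tested. With 3 libraries per group, no library was tested for standing apart from its group.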

How the results depend on the processing

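The falls of Tcf7l1 and Tcf7l2 in macrophages of Bmp9/10-HSC-KO mice were called under all 13 alternatives each. Leaving out single libraries gave, as log2 values, -6.19 to -4.54 for Tcf7l1 and -1.79 to -1.52 for Tcf7l2. Their differences from ECs and livers were called under all 18 alternatives each, as was that of Tcf7l1 from Smad4FF cKO macrophages. That of Tcf7l2 from Smad4FF cKO macrophages was called under 16 of 18, with -1.80 to -1.35 when single libraries were left out; the call was lost without Smad4FF cKO replicate 1 (-1.53, adjusted p = 0.052) and with the replicate block (-1.54, adjusted p = 0.068). Uncalled values near 0 changed sign when single libraries were left out: Tcf7l2 in Smad4FF cKO macrophages (-0.26 to 0.19), Tcf7l1 in ECs (-0.056 to 0.25) and livers (-0.074 to 0.46), Tcf7l2 in livers (-0.21 to 0.13), and the differences of Tcf7l2 between Smad4FF cKO macrophages and livers (-0.10 to 0.35) and of Tcf7l1 between ECs and livers (-0.35 to 0.20). So did Lef1 in Bmp9/10-HSC-KO macrophages (-0.11 to 1.82) and, in Smad4FF cKO macrophages, Tcf7 (-0.076 to 1.07), Lef1 (-0.87 to 0.0013) and Ctnnb1 (-0.14 to 0.071, with 0.03 without Smad4FF replicate 1). With Xist as a covariate, Tcf7l1 in livers was at -0.084 and Tcf7l2 in ECs was called at 0.72; the cause was not tested. In ECs the 3 members called became 1 among genes with 10 counts in every library, where Tcf7 and Lef1 were not tested. With the replicate block they became 1, Ctnnb1, so that the calls of Tcf7 and Lef1 were lost. They became 2 over all genes with a count, where Lef1 was lost (adjusted p = 0.053), and 0 to 2 without single libraries. With Xist as a covariate Tcf7 was lost (adjusted p = 0.051). Of 40 group levels, 0 moved by more than 1 SD with DESeq2's factors and 2 with library size alone.

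The replicate numbers did not pair the libraries: in no comparison were all 3 correlations between same-numbered libraries above 0.1. With the replicate block, the counts of all genes called were 2674 against 3129, 799 against 1356, 3150 against 3229 and 296 against 484 in the macrophages of the ligand and Smad4 experiments, ECs and livers. DESeq2 called more genes, 2315 against 1356 in Smad4FF cKO macrophages, 1095 against 484 in livers, and, for the differences, 1297 against 549 between both macrophage experiments, 2976 against 1744 between macrophages and livers of Bmp9/10-HSC-KO mice, 1605 against 721 between Smad4FF cKO macrophages and livers and 2602 against 1429 between ECs and livers; with the replicate block the first and the third of these differences came to 312 and 420. Without single libraries the 4 comparisons called 1953 to 2881, 622 to 1238, 2033 to 3331 and 193 to 515 genes. Depth limits Lef1 and Tcf7, which had 0 to 53 counts in ECs.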
